A study of Mus musculus with 38 samples.

Results

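The regions described here are the first and the last coding exon segments of mouse genes, read in the direction of the strand, and the ribosome footprints that fell on each. A coding sequence (CDS) is spread over exons, and its segments are the stretches of exons that hold it, so the first segment opens with the start codon and the last one ends in the stop codon. For every gene the longest transcript was taken, counting exon parts outside the CDS as well, and the gene was kept where the CDS of that transcript had 4 or more segments. This gave 30156 regions in 15078 genes, out of 528261 CDS segments over all coding transcripts and 22478 genes with a CDS. In 2571 of these genes (17.1%) another transcript holds a longer CDS. The rule used the annotation alone and no measured value. The genes left out had 1 segment (3716 genes) or 2 or 3 segments (3684 genes), and the latter serve as a comparison below.

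The study profiled ribosomes of primary cortical neurons of CD-1 mouse embryos after proximity labeling, in a method called PL-Ribo-seq. The neurons carried a lentivirus with a doxycycline-inducible biotin ligase. The ligase was either tied to the postsynaptic scaffold protein PSD95 (TurboID-PSD95) or had no localization signal (Pan-TurboID). After nuclease digestion a share of the monosomes was kept as input, and the rest went onto streptavidin to give the pulldown, so a pulldown and the input of the same number come from one culture.

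The 38 libraries fall into 14 groups, 10 of 3 libraries and 4 of 2, and each group of pulldowns has a group of inputs. Resting and depolarized neurons with TurboID-PSD95 or Pan-TurboID make up 24 libraries, where depolarization was 55 mM KCl for 1 h after 2 h of silencing with tetrodotoxin and DL-AP5. A further 6 libraries come from TurboID-PSD95 neurons that received DHPG, which activates metabotropic glutamate receptors of group I, at 100 µM for 10 min, also after 2 h with tetrodotoxin and DL-AP5. The last 8 libraries come from TurboID-PSD95 neurons treated for 72 h with 20 nM siRNA against eIF4G2, a non-canonical initiation factor, at rest or after the same silencing and KCl. Libraries with a control siRNA were not analysed here, so the knockdown libraries are compared among themselves, and the DHPG pulldowns only with their own inputs. All groups carried a lentivirus with 1 of the ligases and received cycloheximide for 2 min before a biotin pulse. The study's methods mention no removal of the drug before the biotin, so the exposure may have been longer. Dishes were pooled within a sample, and the bait is a transgene whose expression varied among neurons. The labels of the DHPG inputs and of the knockdown libraries name the cytosol region in one field and TurboID-PSD95 in another, and the latter was followed.

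The libraries held between 2048604 and 14646402 counts in coding segments, which was between 12.46% and 49.22% of all counted reads. The lowest shares among the depolarized libraries of the KCl experiment belonged to replicate 1 in all 4 of its groups (12.46%, 15.04%, 16.57% and 24.78%, against 31.70% to 43.95% in replicates 2 and 3). Of the lists of marker genes, 9 of 12 neuronal markers had enough counts in both segments to be measured, against 3 of 9 astrocyte markers, 0 of 7 markers of the oligodendrocyte lineage and 0 of 4 of microglia. Eif4g2, the target of the siRNA, held 307 ± 27.5 CPM (counts scaled to a common total of CDS counts) in the 4 knockdown inputs (SD) and 599 ± 86.0 in the 6 TurboID-PSD95 inputs of the KCl experiment, which is a different experiment. Dlg4, the gene of the bait, whose longest transcript has a CDS of 822 nt where the longest CDS of the gene has 2304 nt, held 337 to 5220 CPM in single TurboID-PSD95 pulldowns, both ends in the depolarized group, and 15.7 to 50.1 in Pan-TurboID pulldowns, where reads of the transgene and of the endogenous gene cannot be told apart.

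In ribosome profiling, each read is the stretch of mRNA that 1 ribosome protected, so the reads along a CDS show where ribosomes stood. Ribosomes at the start of a CDS have made only a short stretch of the protein, whereas those near the stop codon carry almost all of it. Reads over the beginning of the CDS are known to be raised in samples treated with cycloheximide, a drug that halts elongation but not initiation. The counts here are of read starts without a shift to the ribosome's decoding site, so ribosomes on the start codon itself are counted before the CDS, and the last bases before the stop codon can hold few reads.

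First segments had a median length of 103 nt and last segments of 140 nt, within a CDS of 1428 nt at the median. Together the first segments held 9.53% and the last segments 12.4% of the coding length. Of the 14791 genes with a complete CDS and at least 3 nt in both segments, 99.74% of first segments opened with ATG and 99.83% of last segments ended in a stop codon in the RefSeq genome of the build used (mm10, GRCm38). The first segments were richer in G and C, with a median of 56.87% against 51.18%. A first segment can be short, and 597 of them were under 10 nt.

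The sequences below are examples from the genes named later, printed 5′ to 3′ on the coding strand from the RefSeq GRCm38 genome. Oxct1, Pdha1 and Slc25a5 were named in the TurboID-PSD95 pulldown and Atp5b in the knockdown. Other named genes have other roles. Capitals mark the start codon in the first segment and the stop codon in the last one. Oxct1, a mitochondrial enzyme of ketone body use, has 17 segments in a CDS of 1563 nt. Pdha1, the E1 alpha subunit of pyruvate dehydrogenase, has 11 in 1173 nt. Atp5b, the beta subunit of ATP synthase, has 10 in 1590 nt. Slc25a5, an exchanger of ADP and ATP in the inner mitochondrial membrane, has 4 in 897 nt.
Oxct1 first segment, chr15:4026772-4026849, plus strand, 78 nt: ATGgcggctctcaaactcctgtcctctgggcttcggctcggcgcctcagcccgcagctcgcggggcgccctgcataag
Oxct1 last segment, chr15:4153728-4153769, plus strand, 42 nt: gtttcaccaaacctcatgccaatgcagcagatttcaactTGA
Pdha1 first segment, chrX:160138256-160138312, minus strand, 57 nt: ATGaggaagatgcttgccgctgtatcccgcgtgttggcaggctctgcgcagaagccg
Pdha1 last segment, chrX:160123783-160123947, minus strand, 165 nt: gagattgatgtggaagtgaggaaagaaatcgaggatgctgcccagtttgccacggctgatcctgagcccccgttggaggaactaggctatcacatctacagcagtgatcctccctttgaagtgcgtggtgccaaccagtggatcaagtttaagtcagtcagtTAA
Atp5b first segment, chr10:128083327-128083453, plus strand, 127 nt: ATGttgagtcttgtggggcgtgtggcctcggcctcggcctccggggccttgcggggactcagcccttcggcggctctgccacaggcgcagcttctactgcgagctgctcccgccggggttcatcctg
Atp5b last segment, chr10:128090019-128090119, plus strand: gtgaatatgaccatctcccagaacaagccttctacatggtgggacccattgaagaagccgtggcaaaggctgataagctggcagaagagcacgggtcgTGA
Slc25a5 first segment, chrX:36795731-36795841, plus strand, 111 nt: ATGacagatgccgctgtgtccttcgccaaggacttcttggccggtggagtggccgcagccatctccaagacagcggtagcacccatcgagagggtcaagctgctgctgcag
Slc25a5 last segment, chrX:36798387-36798544, plus strand, 158 nt: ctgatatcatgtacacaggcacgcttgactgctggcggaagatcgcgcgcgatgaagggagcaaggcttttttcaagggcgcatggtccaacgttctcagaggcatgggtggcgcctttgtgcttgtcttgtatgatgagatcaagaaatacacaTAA
The first segments of these 4 genes held 69.2% (Oxct1), 61.4% (Pdha1), 69.3% (Atp5b) and 61.3% (Slc25a5) G and C, and each last segment held less (42.9%, 50.3%, 52.5% and 50.6%).

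To compare segments of unequal length, the counts per nt of a segment were divided by the counts per nt of the whole CDS of the same gene in the same library. This relative density is given as a log2 value, so 0 is the mean density of the CDS, and the difference of the first and the last segment is called first over last. Of the 15078 genes, 2964 were deep enough to be measured this way (an expected count of 20 or more in both segments, averaged over the 38 libraries). The first segment had no count in any library in 3935 genes, and the last segment had none in 3082.

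Relative to the whole CDS, footprints were denser in the first segment in inputs and in the last segment in most pulldowns. In the 19 inputs the median first segment lay above the mean density of its CDS, at 0.29 to 1.14, and the median last segment lay below it, at −1.01 to −0.23. In the 19 pulldowns the order turned in most libraries, with first segments at −1.06 to 0.60 and last segments at −0.39 to 0.41. The first segments took between 4.301% and 22.653% of the CDS counts that a library held in genes with 4 or more segments.

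The library median of first over last was between 0.60 and 2.23 in the inputs (median 1.11). It was between −1.46 and 1.05 in the pulldowns (median −0.96), and it was above 0 in 3 of the 19. Each of the 19 pulldowns was below the input of its own culture. The highest pulldown, replicate 2 of the depolarized TurboID-PSD95 pulldowns at 1.05, was above several inputs of other groups, so the ranges over all libraries overlap.

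**Figure D1:**
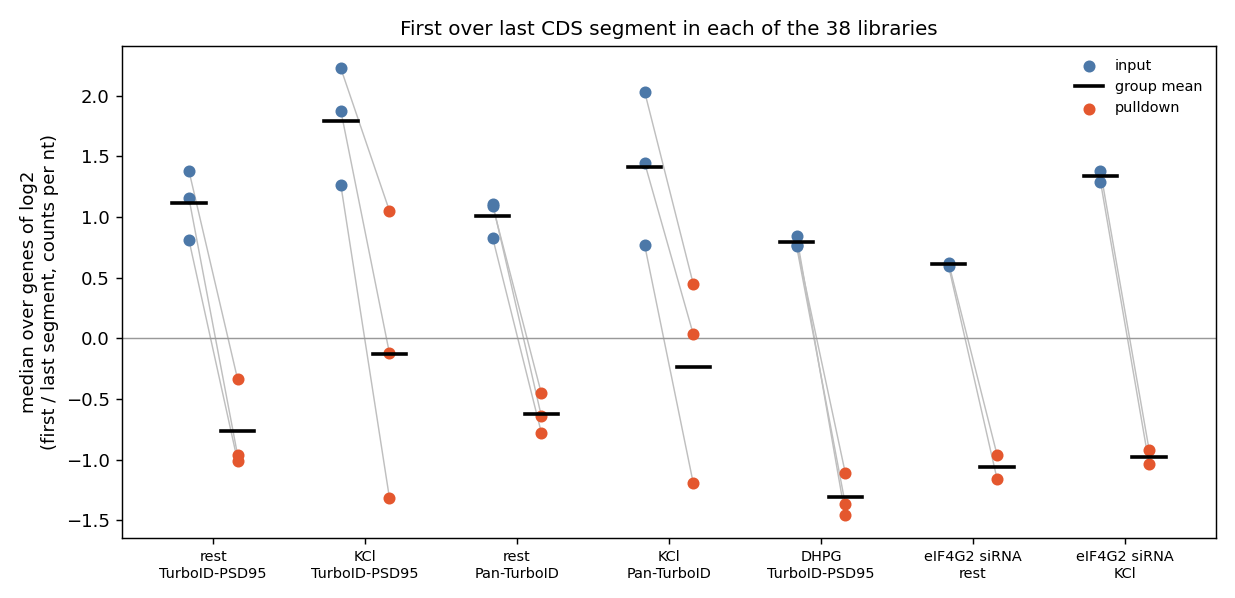
Median over 2964 genes of the log2 ratio of first to last segment (vertical axis, counts per nt) in each of 38 libraries, by condition, with inputs in blue, pulldowns in orange, group means as black bars and lines joining the libraries of one culture. All 19 inputs lie at or above 0.60, and every line falls from input to pulldown, 16 of them to below 0.

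The resting TurboID-PSD95 inputs had medians of 0.81, 1.38 and 1.16, and their pulldowns had −1.01, −0.33 and −0.96. After KCl the TurboID-PSD95 inputs were at 1.26, 2.23 and 1.88, and the pulldowns at −1.32, 1.05 and −0.12. In these depolarized pulldowns the SD of 1.18 exceeded the mean of −0.13.
With Pan-TurboID the resting inputs were at 0.83, 1.09 and 1.11 and the resting pulldowns at −0.78, −0.46 and −0.64. The depolarized Pan-TurboID inputs were at 0.77, 1.45 and 2.03, and their pulldowns at −1.20, 0.03 and 0.45. Replicate 1, which had the lowest share of counts in the CDS, was also the lowest in each of the 4 depolarized groups of this experiment, and the part of that share in the result was not tested.
The DHPG inputs were at 0.84, 0.76 and 0.77 and their pulldowns at −1.46, −1.37 and −1.11. The knockdown inputs were at 0.60 and 0.62 at rest and at 1.29 and 1.38 after KCl. The knockdown pulldowns were at −1.16 and −0.97 at rest and at −1.04 and −0.92 after KCl, so the KCl groups were separate in these inputs and had overlapping values in these pulldowns.

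The pulldown of the KCl experiment was lower than its input by 1.77 ± 0.37 on the log2 scale (SD, 12 pairs, 3.42-fold), in 12 of 12 pairs and by between −2.58 and −1.18. Both ends contributed to this difference. The first segment differed by −1.11 ± 0.33 and the last one by 0.61 ± 0.10. In each pair between 84.582% and 94.399% of the 2964 genes were lower in the pulldown. The difference was −2.10 ± 0.21 in the 3 DHPG pairs and −1.99 ± 0.38 in the 4 knockdown pairs, again in every pair. Without replicate 2 of the depolarized TurboID-PSD95 pulldowns the mean of the KCl experiment was −1.83 ± 0.33 over 11 pairs. These are medians over the genes of a library, so they carry no test.

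The difference was not limited to the outermost segments. All segments of the measured genes were placed whole, by the distance of their midpoint from the CDS start. A bin thus describes whole segments, which can reach beyond it, and bins differ in the genes they hold. For midpoints in the first 50 nt (916 segments) the 6 resting inputs held 0.71 ± 0.15 (SD), and for those in the next 50 nt 0.70. They fell to 0.12 between 100 and 200 nt and to −0.17 between 200 and 400 nt. The 6 resting pulldowns held −0.57 ± 0.29 in the first 50 nt and −0.84 between 100 and 200 nt, where they were lowest, and were at 0.04 between 400 and 800 nt.
From 1600 to 3200 nt the resting pulldowns were at 0.26 against 0.01 in the resting inputs. Segments with a midpoint within the last 50 nt before the CDS end were at 0.23 in these pulldowns against −0.25 in these inputs. The second segment of a gene had a median of −0.38 to 0.13 in inputs and of −1.39 to −0.09 in pulldowns, and the penultimate one had −1.05 to −0.25 in inputs and −0.41 to 0.24 in pulldowns. Thus the second and the penultimate segment differed between the fractions in the same direction as their neighbours.
The DHPG pulldowns had the lowest densities near the start. They held −0.94 ± 0.16 for segment midpoints in the first 50 nt and −1.50 ± 0.14 for those between 100 and 200 nt. Their inputs held 0.54 ± 0.04 and 0.03 ± 0.02 (SD, n = 3).

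**Figure D2:**
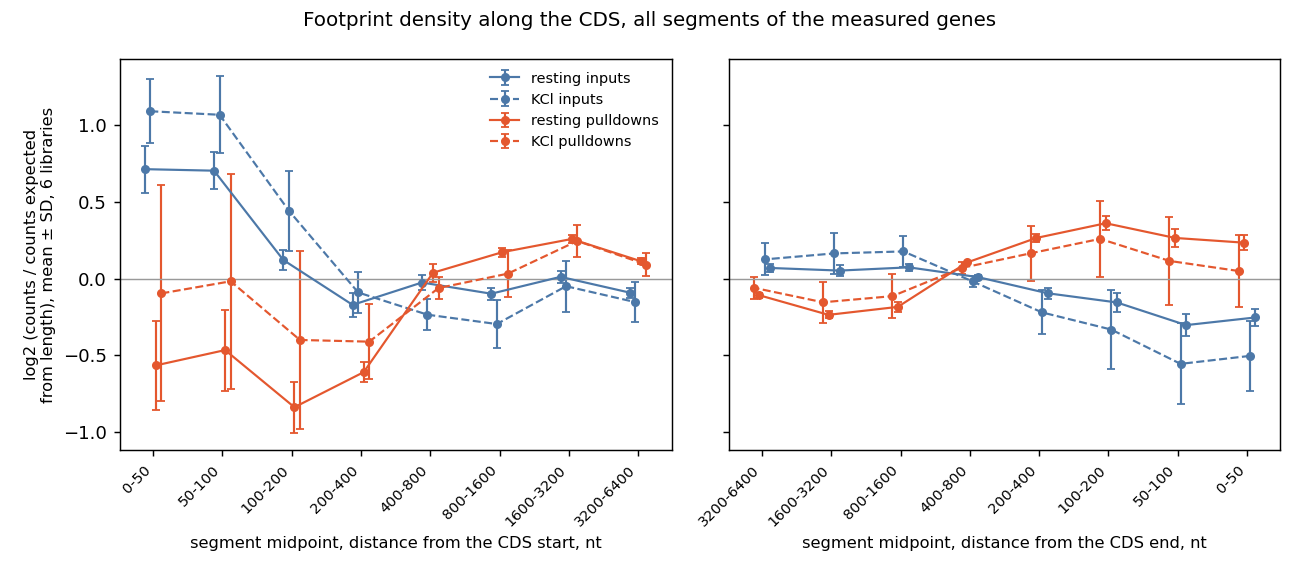
Log2 density of footprints relative to the mean of the CDS (vertical axis, mean ± SD over 6 libraries) against the distance of a segment's midpoint from the CDS start (left) and from the CDS end (right), in bins of nt, for resting (solid) and depolarized (dashed) inputs (blue) and pulldowns (orange). Inputs are highest in the bins next to the start (0.71 at rest and 1.09 after KCl), resting pulldowns are lowest between 100 and 200 nt (−0.84), and the order is the opposite at the end.

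The gap between pulldown and input varied with the length of the CDS. For a CDS of up to 500 nt (143 genes) it was −0.81 in the KCl experiment, −0.19 with DHPG and −0.71 in the knockdown, and for 1000 to 2000 nt (1152 genes) it was −1.96, −2.32 and −2.17. For 4000 to 8000 nt (186 genes) it was −1.82, −2.76 and −2.57, so it was larger than in the 1000 to 2000 nt class in the DHPG and knockdown libraries and not in those of the KCl experiment. By number of segments it went from −1.12 with 4 segments (359 genes) to −2.19 with more than 30 (111 genes).
First segments of over 500 nt (322 genes) had a gap of −1.22 in the KCl experiment, against −1.69 to −1.95 for the shorter classes. The GC content of the first segment went with the level more than with the gap. First over last in the inputs was 0.27 where the first segment had up to 45% GC and 1.90 where it had over 70%, while the gap stayed between −1.54 and −1.89. Across 4 classes of equal size by CDS count the gap was −1.59 to −1.87. These classes share libraries and are given as descriptions.

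**Figure D3:**
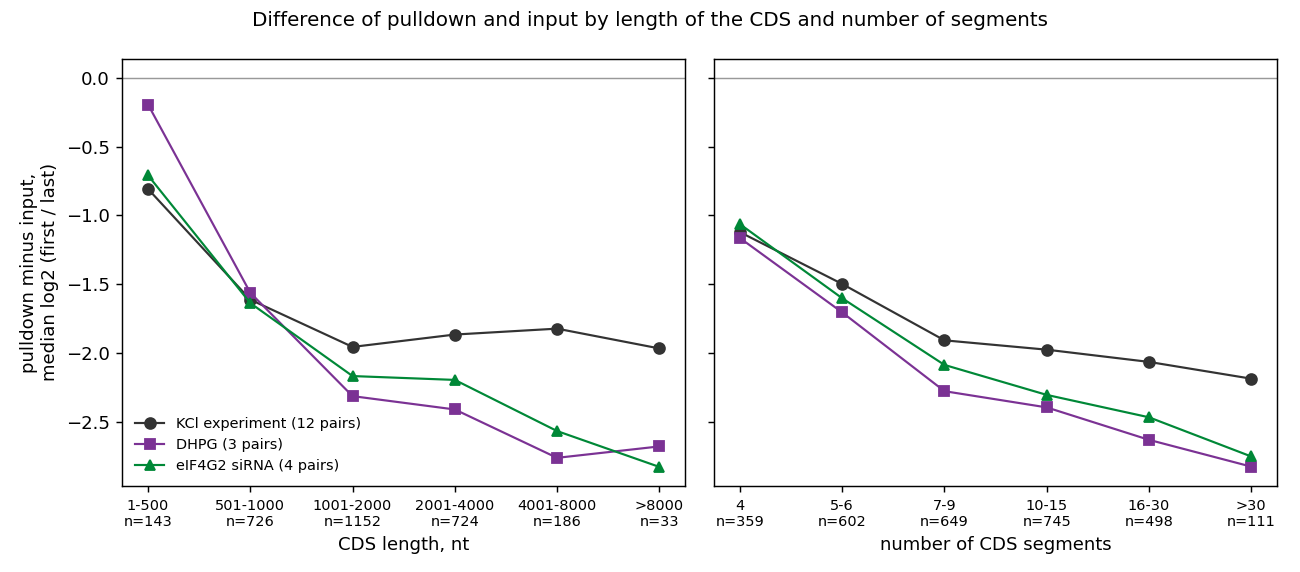
Median over genes of the difference of pulldown and input in log2 first over last (vertical axis) by CDS length in nt (left) and by number of CDS segments (right), with the number of genes n under each class, for the KCl experiment, DHPG and eIF4G2 siRNA. The difference is smallest in the shortest class (−0.81, −0.19 and −0.71 up to 500 nt) and at −1.82 or lower in every class from 1000 nt on.

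Genes with 2 or 3 segments, 644 of which were measured, had a smaller gap than those with 4 or more. It was −0.84 against −1.79 in the KCl experiment, −0.60 against −2.16 with DHPG and −0.96 against −1.99 in the knockdown. Their inputs were also less tilted, at 0.90 against 1.38 in the KCl experiment.

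Each gene was then tested for a change of first over last with edgeR's quasi-likelihood test, in which every library has its own term for the gene, so that the level of the gene drops out. P-values were adjusted by Benjamini-Hochberg (FDR) over all genes with 2 or more segments that passed the filter on low counts, and calls were made at an FDR of 0.05. Of the 15078 genes, 8035 were tested in the KCl experiment, 7306 with DHPG and 6941 in the knockdown, and the rest had too few reads. The p-values rest on the spread between these libraries. This spread is estimated by edgeR from all genes together as well as from the gene itself. With 2 or 3 libraries per group they do not measure the gene's own spread alone. A general shift of all genes stays in these values by design. Scaling the columns of each segment by TMM, which takes such a shift out, moved the median change of these genes from −1.80 to −0.36 for the TurboID-PSD95 pulldown against its input and from 0.59 to 0.09 for KCl against rest in inputs.

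In the TurboID-PSD95 pulldown, 2656 of the 8035 genes (33.1%) were lower in first over last than in the input and 7 were higher, where 30.6% of all genes tested were lower and 0.106% higher. Among genes with 2 or 3 segments 216 of 1362 (15.9%) were lower. The median change was −1.80, and 89.3% of the genes were below 0. After TMM the calls were 284 lower and 152 higher. Without replicate 3, 706 genes were called lower.

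The 10 genes with the smallest p-values that were lower in all 6 pairs (FDR 1.85e-06 each) included Oxct1, Pdha1 and Slc25a5. For Oxct1, the values of the 6 inputs were 0.61 at the lowest, 1.31 at the median and 2.15 at the highest, and those of the 6 pulldowns −4.29, −2.16 and 0.24. The groups do not overlap, and the change was −3.48 ± 0.49 (SE). The 78 nt first segment of Oxct1 shown above held 2950 counts in the 6 inputs and 610 in the 6 pulldowns, whereas its 42 nt last segment held 607 and 851.
For Pdha1 the inputs were at 3.28, 4.16 and 5.23 and the pulldowns at −1.52, 0.10 and 2.90, with a change of −3.86 ± 0.54. Its first segment of 57 nt held 5400 counts in inputs and 1467 in pulldowns, and its last one of 165 nt held 909 and 2030. For Slc25a5 the inputs were at 3.22, 4.01 and 5.25 and the pulldowns at −0.22, 0.56 and 3.22 (change −3.17 ± 0.48). In these 3 genes every pulldown was below every input, if only just for Slc25a5, and the highest pulldown was replicate 2 after KCl.
Slc25a5 has only 4 segments, and it shares sequence with close relatives of its family, so reads may have been divided among them. Oxct1, Pdha1 and Slc25a5 have the same first and last segment in all their annotated transcripts.

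Other genes of this set have different roles. Clcn4, a chloride and proton exchanger of endosomes, was at 2.47, 3.60 and 4.80 in inputs and at −1.29, −0.35 and 1.77 in pulldowns (lowest, median, highest), a change of −3.64 ± 0.54. Gsk3a, a kinase of glycogen and Wnt signaling, was at 1.95, 2.93 and 3.43 against −2.03, −0.80 and 1.34 (change −3.45 ± 0.51). The groups overlapped in neither of them.
Uhmk1, a kinase with an RNA-binding motif, changed most in this set, by −4.12 ± 0.62, from 1.89, 3.61 and 4.75 to −2.63, −0.67 and 0.63. Cct5, a subunit of the chaperonin that folds actin and tubulin, changed by −3.48 ± 0.52, and its highest pulldown (1.45) was just above its lowest input (1.42). Dhcr7, the last enzyme of cholesterol synthesis, changed by −3.08 ± 0.46, with an overlap as well (inputs −0.05 to 2.43, pulldowns −3.19 to 0.22).
Tro, a gene of the MAGE family, ends in a last segment of 3951 nt. It changed by −2.82 ± 0.41, from 1.51, 1.99 and 2.60 to −1.61, −0.57 and −0.05, on only 451 and 87 counts in its first segment.

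**Figure D4:**
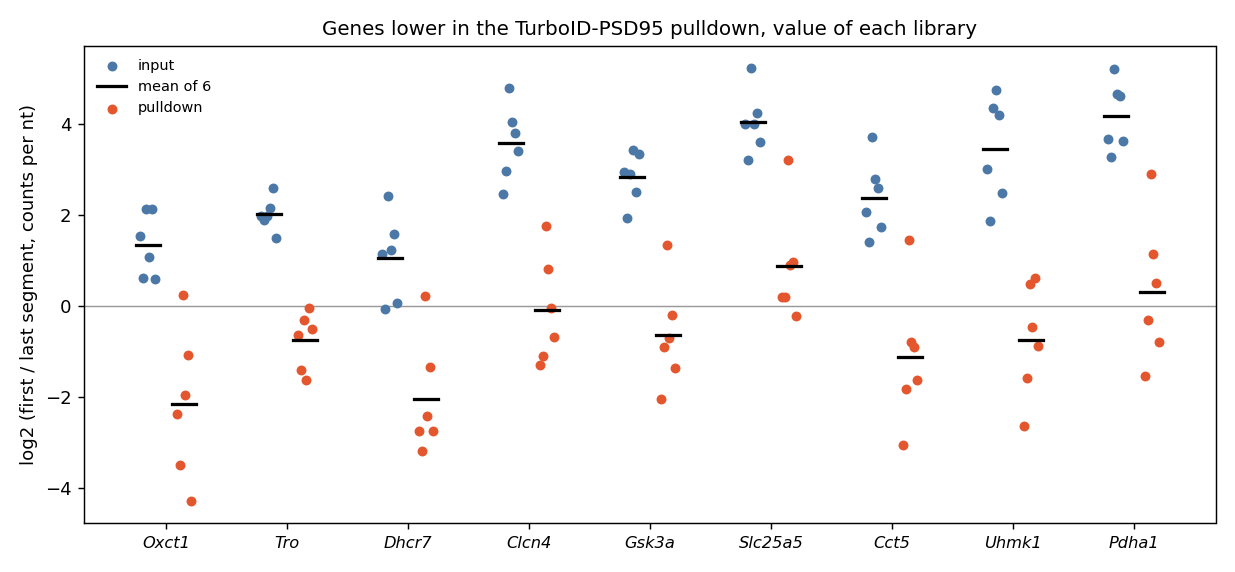
Log2 first over last (vertical axis, counts per nt) of 9 of these genes in each of the 6 inputs (blue) and 6 pulldowns (orange) with TurboID-PSD95, with the mean of 6 as a black bar. The pulldowns lie below the inputs in 7 genes, and in Cct5 and Dhcr7 the highest pulldown reaches above the lowest input.

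Only 4 genes were higher in the TurboID-PSD95 pulldown in all 6 pairs, and each rests on few reads in at least 1 segment. These are Dlk2 (change 3.04 ± 1.09, FDR 0.0255), Bbs5 (4.45 ± 1.65, FDR 0.0318, with 3 counts in the last segment of the pulldowns), Krba1 and Zfp414 (2.98 ± 1.19, FDR 0.0462, with 9 counts there). The first segment of Krba1 held 0 counts in the inputs and 9 in the pulldowns, so no fold is given. With the culture of each pair as a block, Bbs5 and Krba1 were no longer called (FDR 0.123 and 0.0682). The direction of Krba1 turned when the transcript with the most CDS counts was used in place of the longest one, and without replicate 2.

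With Pan-TurboID, which labels the whole neuron, 2399 of 8035 genes (29.9%) were lower and 11 higher in the pulldown, where 27.3% of all genes tested were lower and 0.138% higher. The median change was −1.66, and after TMM 138 were lower and 96 higher. Without replicate 3, 528 genes were called lower, and without replicate 2, 1579. Ndufv2, a subunit of complex I, had the smallest p (change −3.46 ± 0.48, FDR 8.62e-07), followed by Clcn4 (−3.74 ± 0.53, FDR 1.11e-06) and Tro (−2.85 ± 0.41, FDR 1.19e-06). Nrxn3, a presynaptic adhesion molecule, was higher by 1.32 ± 0.45 (FDR 0.0226), with 938 counts in the first and 1517 in the last segment of inputs and 2567 and 1690 in pulldowns. Zfp251 and BC005537, which had smaller p-values than Nrxn3 among the higher genes, held 0 and 2 counts in their first segments in inputs, and BC005537 turned to −0.84 with the transcript of most CDS counts.

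Whether the postsynaptic bait changed first over last beyond the untargeted ligase was asked by the difference of both contrasts. None of 8035 genes was called in either direction with edgeR (0.0% of all genes tested), and DESeq2 called 0 as well. At an unadjusted p under 0.05 there were 77 higher and 82 lower, and the median difference was −0.15 (−0.36 to −0.08 when a replicate was left out). Without replicate 2 of the depolarized TurboID-PSD95 pulldowns, a library chosen after seeing the data, the median difference was −0.50. The smallest p belonged to Sdhc, a membrane anchor of succinate dehydrogenase (FDR 0.0515), whose first segment of 20 nt held 1 count in the TurboID-PSD95 inputs and 15 in the pulldowns. With the culture of each pair as a block, 2 genes were called higher, Sdhc among them (FDR 0.00285), and 4 lower, where 0.0213% of all genes tested were higher and 0.0426% lower. For Pdha1 the difference was −0.66 ± 0.74, for Oxct1 −0.66 ± 0.67 and for Slc25a5 −0.14 ± 0.66, each within 1 SE of 0.

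The DHPG libraries have no resting group of their own. Against their inputs, the pulldowns were lower in 4747 of 7306 genes and higher in 94, where 60.8% of all genes tested were lower and 1.44% higher. Among genes with 2 or 3 segments 35.8% were lower. After TMM 1218 were lower and 1540 higher. The smallest p-values were those of Tubb2a (change −2.75 ± 0.11, FDR 6.67e-30) and Tubb3 (−2.68 ± 0.12, FDR 6.67e-28), both beta-tubulins. Reads of tubulins may be divided among near-identical copies.
Rab3a, a small GTPase of synaptic vesicles, was at −0.42, −0.45 and −0.48 in inputs and at −4.15, −3.69 and −3.81 in pulldowns. The change of −3.43 ± 0.15 (FDR 6.67e-28) was many times the spread in either group. Luc7l2, a splicing factor of the U1 particle, went the other way, from 1.11, 0.67 and 0.66 to 2.95, 2.93 and 3.03 (change 2.16 ± 0.32, FDR 2.22e-08). Vstm2b was higher by 3.68 ± 0.57 (FDR 8.1e-08) and Dlk2, a relative of the Notch ligand family, by 4.73 ± 0.57 (FDR 1.32e-10) on 13 counts in the first segment of inputs.
Dlk2 was called higher here and with TurboID-PSD95 in the KCl experiment, and its direction in the DHPG libraries turned with the transcript that held the most CDS counts.

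In the eIF4G2 knockdown the pulldowns were lower than the inputs in 2933 of 6941 genes (42.3%) and higher in 29, where 39.6% of all genes tested were lower and 0.493% higher. After TMM 414 were lower and 444 higher. Map1b, a microtubule-associated protein with a CDS of 7395 nt, changed by −4.90 ± 0.18 (FDR 7.68e-158). Its inputs were at 1.62 and 1.57 at rest and at 2.38 and 2.51 after KCl, and its pulldowns at −2.95 and −2.52 at rest and at −2.79 and −3.26 after KCl. The fractions of Map1b were far apart in either state.
Atp5b, whose segments are shown above, changed by −3.93 ± 0.21 (FDR 1.54e-75). Its inputs were at 1.86 and 2.10 at rest and at 3.27 and 3.43 after KCl, and its pulldowns at −1.47, −0.56, −1.69 and −1.31. Actb, the cytoplasmic beta-actin, changed by −2.96 ± 0.13 (FDR 2.32e-111), with reads that actin copies may share.
Igfbp2, a secreted binding protein of insulin-like growth factors, was the clearest gene in the other direction. It went from −0.05, 0.09, −0.05 and −0.14 in inputs to 1.57, 1.66, 1.46 and 0.96 in pulldowns (change 1.45 ± 0.18, FDR 1.3e-14). The other named genes that were higher, Rnf187 and Txn1, had 0 counts in one segment of one fraction.

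Oxct1, Pdha1, Slc25a5 and Atp5b, which were picked for their small p-values in these libraries, were called lower in each set of libraries. Of all genes with 4 or more segments, 33.1% were lower with TurboID-PSD95, 29.9% with Pan-TurboID, 4747 of 7306 with DHPG and 42.3% in the knockdown. Pdha1 changed by −3.19 ± 0.52 with Pan-TurboID, by −4.33 ± 0.21 with DHPG and by −5.04 ± 0.33 in the knockdown. Oxct1 changed by −2.82 ± 0.48, −3.91 ± 0.25 and −3.93 ± 0.37 in the same order, and Slc25a5 by −3.03 ± 0.47, −3.74 ± 0.25 and −3.74 ± 0.34. Atp5b changed by −3.23 ± 0.56 with TurboID-PSD95, by −2.53 ± 0.55 with Pan-TurboID and by −3.57 ± 0.17 with DHPG. Differences between these experiments were not tested. Ybx1 was not called in the KCl experiment, with −0.16 ± 0.44 for TurboID-PSD95 and −0.08 ± 0.44 for Pan-TurboID (FDR 0.862 and 0.962), and was higher in the DHPG pulldowns by 0.65 ± 0.20 (FDR 0.00431).

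The gene lists are described by how many of their tested genes were lower in the TurboID-PSD95 pulldown and by their median change, beside 33.1% and −1.80 over all genes with 4 or more segments. Whether a gene is called also depends on its counts, so the share and the median of a list can point apart. Of the postsynaptic density genes below, for example, 42.4% were lower although their median was only −1.38. Of the aminoacyl-tRNA synthetases, which charge tRNAs, 16 of 20 were lower with a median of −2.32, among them Gars (−3.19), Sars (−2.93), Mars (−4.01) and Rars (−3.07). Of the proteasome subunits 19 of 28 were lower (median −2.27), such as Psmb6 (−3.18) and Psmd5 (−3.55). Of the nuclear-encoded subunits of oxidative phosphorylation 26 of 42 were lower (median −2.11), such as Uqcrc1 of complex III (−3.26).
Of the cytosolic ribosomal proteins 3 of 38 were lower (median −0.64), among them Rpl6 (−1.74) and Rps3 (−1.34). After TMM, which moved the median of the genes with 4 or more segments from −1.80 to −0.36, Rps3 was at 0.23. Ribosomal proteins have many processed copies that can take their reads. Those measured also have a short CDS, with a median of 498 nt, against 523.5 nt for the subunits of oxidative phosphorylation. Their median gaps in the KCl experiment were −0.99 and −1.79 in that order, beside −0.81 over all measured genes of up to 500 nt. The part of copies or of CDS length in the result was not tested. In the DHPG libraries 9 of 30 ribosomal proteins were lower, against 18 of 20 aminoacyl-tRNA synthetases and 30 of 40 subunits of oxidative phosphorylation, beside 4747 of 7306 over all genes with 4 or more segments. In the knockdown these counts were 6 of 30, 15 of 20 and 27 of 41, beside 42.3% over all. Among these 3 lists the ribosomal proteins had the smallest share of lower genes in each of these sets of libraries.

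Of the initiation and elongation factors 17 of 52 were lower in the TurboID-PSD95 pulldown (median −1.79), among them the eIF3 subunits Eif3c (−3.20), Eif3b (−2.28) and Eif3a (−2.50), together with Eif2ak3 (−3.53), a kinase that this list also holds. Eif4g2 was lower by −2.29 (FDR 0.0247), on a first segment of 41 nt. Of the chaperones 13 of 23 were lower (median −1.53), including Tcp1 (−3.42) and Cct3 (−2.60), which belong with Cct5 to 1 chaperonin. No gene of any list was higher.
Genes of the synapse were lower in part. Of the postsynaptic density genes 14 of 33 were lower (median −1.38), such as Camk2b, a subunit of the calcium and calmodulin-dependent kinase (−2.13), and the AMPA receptor subunits Gria1 (−2.39) and Gria2 (−2.55). Of the presynaptic genes 15 of 29 were lower (median −1.77), such as Syp (−2.31), Syn2 (−2.58) and Sv2a (−2.82), which are proteins of synaptic vesicles, and Syt1 (−2.39), their calcium sensor. Dlg4, the bait's own gene, was at 0.50 (FDR 0.476) in the transcript of 822 nt.
Of the cytoskeleton and motor genes 18 of 31 were lower (median −1.93), among them Dync1h1, the dynein heavy chain, with 77 segments (−3.20), Actg1 (−3.02) and Map1b (−2.60). Of the secreted and membrane proteins with signal peptides 20 of 37 were lower (median −1.50), such as Clstn1 (−2.85) and Cpe, a carboxypeptidase that trims neuropeptides (−2.68). Of the immediate early genes 9 of 16 were lower (median −1.70), such as the nuclear receptors Nr4a1 (−2.25), Nr4a2 (−2.42) and Nr4a3 (−2.08).
Of the neuronal markers 2 of 11 were lower (median −0.76), and of the astrocyte markers 3 of 8, with Slc1a3, a glutamate transporter, at −2.71. The oligodendrocyte list had 2 tested genes, of which Pdgfra was lower, and no microglial gene was tested.

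After KCl, first over last was higher in most inputs. The sample labels give the silencing for the KCl groups and not for the resting ones, so KCl and silencing cannot be told apart here. The difference of same-numbered libraries was 0.45, 0.84 and 0.72 with TurboID-PSD95 and −0.06, 0.36 and 0.92 with Pan-TurboID. The mean was 0.54 ± 0.37 (SD), and 5 of 6 were above 0. The first segments differed by 0.31 ± 0.20 and the last ones by −0.24 ± 0.20. The ranges of resting (0.81 to 1.38) and depolarized inputs (0.77 to 2.23) overlap. With segments placed by their midpoint, the depolarized inputs held 1.09 ± 0.21 in the bin of the first 50 nt against 0.71 ± 0.15 at rest. Between 100 and 200 nt they held 0.44 against 0.12, and in the bin of the last 50 nt −0.51 against −0.25.
In the pulldowns the differences of same-numbered libraries were −0.31, 1.39 and 0.84 with TurboID-PSD95 and −0.42, 0.49 and 1.09 with Pan-TurboID, so they did not keep 1 direction.

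In the test over genes, 14 of 8035 were higher after KCl in the inputs and none lower, where 0.17% of all genes tested were higher and 0.0213% lower. The median change was 0.59. At an unadjusted p under 0.05, 797 were higher and 40 lower. DESeq2 called 182 higher and 2 lower, and after TMM the edgeR calls were 14 higher and 7 lower. Leaving out replicate 1 of every group gave 92 calls, leaving out replicate 2 gave 6, and leaving out replicate 3 gave 1. Resting and depolarized samples of one replicate were processed at the same time, per the study's methods, and the test above does not use this. With the replicate number as a block, 93 genes were higher and 5 lower, where 1.01% of all genes tested were higher and 0.0745% lower, and the 14 were all among these 98.

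Ybx1, a protein that binds mRNA and regulates its translation, had the smallest p. It has 7 segments in a CDS of 969 nt. Its 6 resting inputs were at −1.10 (lowest), −0.70 (median) and −0.44 (highest), and its 6 depolarized inputs at 0.11, 2.19 and 2.76. The groups do not overlap, and the change was 2.64 ± 0.44 (SE, FDR 0.000233), higher in 6 of 6 pairs. Its first segment held 1942 counts at rest and 1995 after KCl, whereas its last segment held 4954 and 685, so the counts in the last segment were those that differed.
The change of Ybx1 in the pulldowns was alike in size but not called, with 2.62 ± 0.64 for TurboID-PSD95 (FDR 0.178) and 2.55 ± 0.63 for Pan-TurboID (FDR 0.879), higher in 3 of 3 pairs each. With the replicate block it was called in both (FDR 0.00681 and 0.0301). In the knockdown it was 2.57 ± 0.44 in inputs (FDR 1.06e-05) and 1.64 ± 0.49 in pulldowns (FDR 0.0874). The knockdown inputs of Ybx1 were at −0.87 and −0.76 at rest and at 1.95 and 1.54 after KCl.

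Mmp24, a membrane-bound matrix metalloproteinase, was at 1.64, 3.20 and 4.03 at rest and at 4.70, 6.40 and 7.53 after KCl (change 3.23 ± 0.57, FDR 0.000543). Adcy1, a calcium-stimulated adenylyl cyclase, was at 2.14, 2.66 and 3.39 against 3.63, 6.05 and 8.44 (change 3.13 ± 0.62, FDR 0.00414). In both, the last segment held fewer counts after KCl (68 against 565, and 26 against 198), while the first segment held 2079 against 1785 and 2772 against 2378. Mmp24 and Adcy1 have 1 annotated coding transcript each, with 9 and 20 segments.
Foxk2, a forkhead transcription factor, was at −0.31, 0.65 and 1.13 at rest and at 1.88, 3.26 and 4.00 after KCl (change 2.58 ± 0.56, FDR 0.0121). Smap1, a GTPase-activating protein of Arf6, was at −0.91, −0.45 and −0.21 against 0.69, 1.58 and 1.78 (change 1.97 ± 0.44, FDR 0.0177). The groups overlap in neither gene.
Mast1, a kinase bound to microtubules, was at −1.24, −0.25 and 0.28 against 1.16, 1.67 and 2.50 (change 2.09 ± 0.48, FDR 0.0247). Odc1, the rate-limiting enzyme of polyamine synthesis, changed by 4.17 ± 0.95 (FDR 0.0233), with a highest resting value of 1.74 above the lowest depolarized one of 1.15. Olfm1, a secreted olfactomedin protein, changed by 1.89 ± 0.44 (FDR 0.0247) with a slight overlap, from −5.43, −3.87 and −2.68 to −2.70, −1.94 and −1.48. For Grip1, a scaffold of AMPA receptors, the first segment held 2 counts at rest and 33 after KCl, so its value is imprecise.
Further genes called were Mtss1l (2.68), Pacs2 (2.84) and the elongation factors Eef1a1 (1.82) and Eef1a2 (1.71), which are close relatives and may share some reads.

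**Figure D5:**
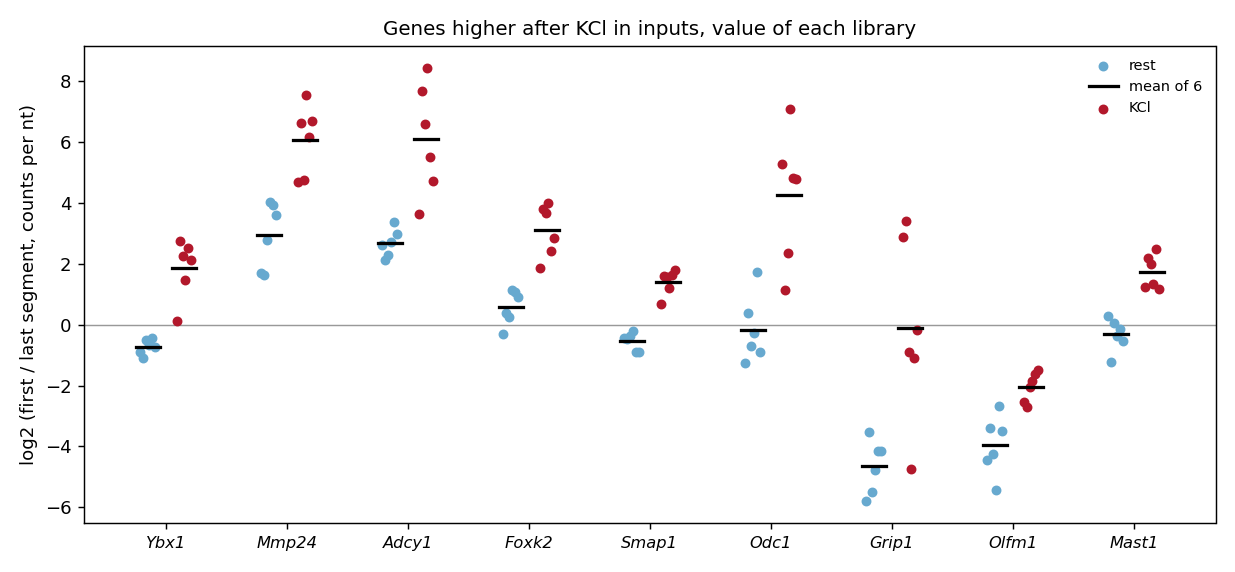
Log2 first over last (vertical axis, counts per nt) of 9 named genes in each of the 6 resting (light blue) and 6 depolarized (red) inputs of the KCl experiment, with the mean of 6 as a black bar. The groups are separate in 6 genes, such as Ybx1 (resting at most −0.44, depolarized at least 0.11), and they overlap in Odc1, Grip1 and Olfm1.

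In the TurboID-PSD95 pulldowns no gene with 4 or more segments was called after KCl without the replicate block, where 0.0106% of all genes tested were lower. At an unadjusted p under 0.05, 647 were higher and 41 lower, and DESeq2 called 60 higher and 1 lower. With the replicate block 25 genes were called higher, where 0.287% of all genes tested were higher. The median change was 0.76, but it was 0.34 without replicate 2 of every group and 0.07 without replicate 2 of the depolarized TurboID-PSD95 pulldowns, and without replicate 1 of every group 74 genes were called higher. In the Pan-TurboID pulldowns none was called either (0.0% of all genes tested). There 307 were higher and 56 lower at an unadjusted p under 0.05, DESeq2 called 2 higher, the replicate block gave 1 higher (0.0106% of all genes tested), and the median change was 0.43, with 0.12 without replicate 3 of every group and 0.70 without replicate 1.

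The 1 gene called in the TurboID-PSD95 pulldowns and those lower in the inputs have 2 or 3 segments. Egr1, an immediate early transcription factor, was lower after KCl by −2.30 in the inputs (FDR 2.24e-05) and by −2.50 in the TurboID-PSD95 pulldowns (FDR 0.0223). Its relative Egr2 was lower in the inputs by −2.55. Gap43, a growth cone protein, and Myc were higher there, by 2.02 and 5.52. The immediate early genes with 4 or more segments had a median change of −0.47 in the inputs, and 0 of 16 were called, against 2 with the replicate block, Fosb and Npas4, both lower. Fosb, with a first segment of 126 nt, was at −1.34 ± 0.52 (FDR 0.326) and lower in 5 of 6 pairs, and it was called lower with the replicate block (FDR 0.0407). Its depolarized inputs held 3360 counts in the first and 10230 in the last segment, against 339 and 483 at rest.
Dclk1, a gene with isoforms that differ at the start, was at 0.62 ± 0.40 (FDR 0.652). Homer1 and Crem, known for isoforms induced by activity, were not tested, since their first segments in the longest transcript held no counts; that transcript of Homer1 has a CDS of 561 nt, and the longest CDS of the gene has 1113 nt.

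The other lists with over 10 tested genes had medians above 0 in the inputs, beside 0.59 over all genes with 4 or more segments. The chaperones had the highest of these, at 1.10, and their 23 tested genes ranged from 0.41 to 2.85, so each was above 0 although 0 passed the test. The cytoskeleton genes were at 0.79, the initiation and elongation factors at 0.78, the ribosomal proteins at 0.75 and the proteasome at 0.66. Postsynaptic density genes were at 0.32 and presynaptic genes at 0.36. Without a block, the only calls in these lists were 2 of 52 initiation and elongation factors, Eef1a1 and Eef1a2. With the replicate block, which called 98 of 8035 genes, the same 2 factors were called. Beside them and the 2 immediate early genes above, it called 2 of 23 chaperones (Hsp90ab1 and Hspa8), 3 of 31 cytoskeleton genes (Tubb5, Tubb2a and Actb), 3 of 29 presynaptic genes, 1 of 37 secreted and membrane proteins (Canx) and 1 of 38 ribosomal proteins (Rpl8), all higher. Of 33 postsynaptic density genes Camk2b was higher and Ppp1r9b lower. It called none of the 42 subunits of oxidative phosphorylation, the 20 aminoacyl-tRNA synthetases, the 28 proteasome subunits and the marker genes of cell types.

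In the knockdown inputs 85 of 6941 genes were higher after KCl and 1 was lower, where 1.15% of all genes tested were higher and 0.0246% lower. The median change was 0.69, DESeq2 called 44 higher and 1 lower, and after TMM there were 5 higher and 9 lower. Tubb2b (change 1.34 ± 0.19, FDR 2.45e-08) and Tubb2a (1.15 ± 0.17, FDR 5.79e-08) had the smallest p-values, and the mitochondrial glutamate carrier Slc25a22 held 0 counts in its first segment at rest and 28 after KCl. Oxct1 (2.02 ± 0.49, FDR 0.00776), Atp5b (1.38 ± 0.29, FDR 0.00072) and Map1b (0.86 ± 0.24, FDR 0.0403) were higher as well. The 1 gene that was lower was Fos, the immediate early gene, with 0.57 and 0.75 at rest and −0.50 and −0.70 after KCl (change −1.26 ± 0.27, FDR 0.0016).

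In the knockdown pulldowns the library medians overlapped between rest and KCl. Of 6941 genes 12 were higher and 18 lower, where 0.222% of all genes tested were higher and 0.234% lower, and the median change was 0.08. After TMM there were 10 higher and 27 lower. Serpinh1, the collagen chaperone of the endoplasmic reticulum, had the smallest p. It was at −0.50 and 0.43 at rest and at −3.43 and −3.08 after KCl (change −3.22 ± 0.36, FDR 4.18e-15), while its 4 inputs stayed between −0.32 and −0.21.
Slc39a7, a zinc transporter of the endoplasmic reticulum, behaved alike, from 2.12 and 1.97 to −1.09 and −1.55 (change −3.35 ± 0.45, FDR 2.43e-10), with inputs between 0.40 and 0.72. The first segments of Serpinh1 (619 nt) and Slc39a7 (435 nt) held 1195 and 1270 counts at rest and 171 and 122 after KCl. Sarm1, an NAD-cleaving enzyme of axon degeneration, was lower by −4.02 ± 0.69 (FDR 1.22e-05) on 402 and 55 counts there.
Further genes that were lower included Cpe (−1.71 ± 0.31, FDR 2.48e-05), Nlgn3, a postsynaptic adhesion molecule (−1.79 ± 0.41, FDR 0.00504), and the immediate early genes Fosb (−2.70 ± 0.58, FDR 0.00192) and Fos (−1.24 ± 0.31, FDR 0.0167). Eef1a1 (2.16 ± 0.38, FDR 1.69e-05), Clptm1 (4.05 ± 0.78, FDR 0.000167) and Ogfr, the opioid growth factor receptor (2.27 ± 0.48, FDR 0.00136), were higher. The first segment of Clptm1 held 5 counts at rest. These groups hold 2 libraries each, and whether the changes belong to the knockdown was not tested.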

How the data were processed

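Ribosome footprints were measured in 38 libraries of primary cortical neurons. The authors trimmed reads and removed adapters with Rfastp, split pooled libraries by barcode with fastq-multx, kept reads of over 20 nt and aligned them with Rsubread to mm10, per the study's methods. The deposited tables hold raw counts of read starts for every CDS segment of every transcript, counted on the sense strand with plastid and without a shift for the ribosome's P site. The deposited tables also give each segment's length in nt, an annotation value of another kind than the counts. From the tables of the exon parts outside the CDS only the lengths were used, to find the longest transcript of a gene.

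The 38 libraries were grouped by their labels. The longest transcript of each gene was taken, 0.5 was added to observed and expected counts for log2 densities, and the medians used genes with an expected count of 20 or more in both segments. First and last counts entered edgeR 4.0.16 (quasi-likelihood test, R 4.3.3) as 2 columns per library with the library's CDS total as size of both, with terms for library and for segment by group, over all genes with 2 or more segments, followed by Benjamini-Hochberg adjustment at 0.05. The 24 libraries of the KCl experiment, the 6 DHPG and the 8 knockdown libraries were fitted apart. DESeq2 1.42.0, limma 3.58.1, Python 3.11.15, pandas 2.3.3, numpy 2.4.6, pysam 0.24.0 and matplotlib 3.10.9 were also used. The regions and the 16 gene lists were chosen with earlier results of these data known, so no count over a list carries a test.

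Depth was 2048604 to 14646402 CDS counts per library. The test was checked on simulated counts with known changes. For KCl against rest in inputs it recovered 2% of 2-fold and 38% of 4-fold changes. Pulldown against input gave 1% and 40% with TurboID-PSD95, 45% and 94% with DHPG, and 14% and 70% in the knockdown. Many changes of these sizes can thus be missed in the KCl experiment, and a lack of calls does not show a lack of change. The real pulldown comparisons carry a general shift that the simulations lack, so the recovery there can differ from these shares. The comparisons without calls were not simulated. Between replicates the chi-square per degree of freedom was 8.86 to 50.4 in the KCl experiment, 1.47 to 8.34 with DHPG and 2.83 to 4.88 in the knockdown. The lowest values, 1.47 to 1.94, were those of the DHPG inputs. All were above counting noise, so no library was counted as a repeat of another. These values do not show whether replicates are separate cultures, and the smaller spread enters the p-values of the DHPG and knockdown fits. Same-numbered pulldowns and inputs come from one culture by the study's design, and the correlation of their deviations from the group means was 0.02 to 0.27 in the KCl experiment, −0.10 to 0.06 with DHPG and −0.01 to 0.01 in the knockdown. Resting and activated samples of a replicate were processed at the same time, per the study's methods, so their numbers pair them too. The correlation there was −0.03 to 0.18 in the KCl experiment and −0.08 to −0.03 in the knockdown.

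Named genes were those called with all same-numbered pairs in the direction of the change: the 10 smallest p-values per direction for KCl against rest in inputs and for the TurboID-PSD95 pulldown, the 3 smallest per direction elsewhere, and the single smallest p where none was called. Homer1, Crem, Dclk1, Fosb, Dlg4 and Eif4g2 were always named, and up to 4 genes of each list were added by p. A few genes that this rule names are not reported here. Genes with 2 or 3 segments, other genes among the 14 called in the inputs, and others called in the knockdown were named after their values were seen. Symbols came from GENCODE M21, which names 66750 of the 67238 coding transcripts. The alternatives were DESeq2, edgeR's likelihood ratio test, TMM factors, a filter on a total of 10 counts, the transcript with the most CDS counts, segments shared by every transcript, a replicate block and leaving out replicates.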

Additional observations from a re-analysis of the deposited data

How the results depend on the processing

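The library medians kept their direction and stayed within the spread of their pairs under every alternative run. The pulldown minus input difference was −1.93 to −1.57 in the KCl experiment, −2.21 to −2.003 with DHPG and −2.04 to −1.77 in the knockdown, and the KCl minus rest difference of inputs was 0.40 to 0.71. Counts of called genes moved more. For KCl against rest in inputs (14 calls) there were 184 with DESeq2, 124 with the likelihood ratio test, 31 with a filter on a total of 10 counts, 98 with the replicate block, 5 with segments shared by every transcript, 1 to 92 when a replicate was left out, and 71 without replicate 2 of the depolarized TurboID-PSD95 pulldowns, a library chosen after seeing the data. For the TurboID-PSD95 pulldowns after KCl (0 calls) these settings gave 61, 11, 4 and 25 in the same order up to the block, TMM gave 1, leaving out a replicate 0 to 74, and leaving out that library 1. For the Pan-TurboID pulldowns DESeq2 gave 2, the block 1 and leaving out a replicate 0 to 1. For pulldown against input with TurboID-PSD95 (2663 calls) TMM gave 436, shared segments 759 leaving out a replicate 707 to 2396 and leaving out that library 3324, and with Pan-TurboID (2410 calls) 234, 651, 529 to 1925 and 2707. For the difference of both contrasts (0 calls) the likelihood ratio test gave 2, TMM 2, the filter 1 and the replicate block 6. For DHPG (4841 calls) TMM gave 2758 and shared segments 1349, and for pulldown against input in the knockdown (2962 calls) 858 and 810. For KCl in the knockdown inputs (86 calls) DESeq2 gave 45, the likelihood ratio test 154, TMM 14 and shared segments 51, and in its pulldowns (30 calls) the likelihood ratio test gave 119 and shared segments 17. Shared segments leave fewer genes to test; for the other settings the cause was not tested. The block changed no other count by over 1.5 times. Of the results of single named genes in a comparison, 77 kept their call, or its absence, under every alternative. Another 46 lost their call under at least 1 alternative, and 15 gained a call. A further 2 turned in direction, and 3 both turned and lost their call. Of single genes, Krba1 turned to −1.21 with the transcript of most CDS counts and was between −0.14 (without replicate 2) and 4.70 when a replicate was left out, BC005537 to −0.84 and Dlk2 with DHPG to −1.72 with that transcript, and with TMM, which moved the medians of the genes with 4 or more segments from −1.80 to −0.36 and from −2.12 to −0.33, Rps3 was at 0.23 and Dclk1 in the knockdown pulldown at 0.059. Fits that leave out 1 replicate of the knockdown were not run, since no residual degrees of freedom are left. At this depth 2964 of 15078 genes reached the expected count that was asked for on average over the libraries, and single shallow libraries can hold less.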

Other observations

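The genes at the ends of the measured range were looked up after their values were seen and carry no test. Over the 12 pairs of the KCl experiment the lowest mean differences of pulldown and input in log2 first over last were those of Usp33, a deubiquitinase (−4.60), Evi5l (−4.35), Acaca, the biotin-carrying acetyl-CoA carboxylase 1 (−4.26), the mitochondrial carrier Slc25a38 (−4.22) and Tsc2, a subunit of the tuberous sclerosis complex (−4.12). In Acaca the first segment went from 2.21 in inputs to −0.86 in pulldowns and the last one from −2.45 to −1.25.

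At the other end stood Stmn4 (1.79), Anp32e (1.60), Gm20671 (1.43), Stmn3 (1.33), Cox7a2 (1.30), an entry named Igsf5 (1.16), Stmn1 (1.11), B3gat1 (1.05) and Nrxn3 (1.02). The first segments of the 3 stathmins, which bind tubulin, were almost empty, at −6.14, −7.45 and −7.93 for Stmn4, Stmn3 and Stmn1 in inputs. Those of Cox7a2 (−7.82) and of the entry named Igsf5 (−6.39) were almost empty in inputs as well, and that of Gm20671 was low (−3.73). Those of Anp32e (−1.31 in inputs, −0.28 in pulldowns) and Nrxn3 (−1.13 and −0.35) were not.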
